A study of Mus musculus with 8 samples.

Results

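The 10 genes described here code for proteins that bind, store, carry or sense metals: the metallothioneins Mt1 and Mt2, the ferritin subunits Fth1 and Ftl1, the transporters Tfrc, Slc11a2, Slc39a14 and Slc40a1, and the regulators Ireb2 and Mtf1. They were taken by gene symbol from a table of 16888 genes, and all 10 were found. Each sample was whole pancreas from a mouse model of acute pancreatitis, brought on by repeated injection of cerulein, an analogue of the gut hormone cholecystokinin that drives acinar cells to secrete. Values listed for a group always run from its library 1 to its library 4. A group of 4 libraries carried a myeloid-specific knockout of Anxa1 (CKO1 to CKO4), and a group of 4 came from Anxa1 flox/flox mice (WT1 to WT4). Every library came from cerulein-treated pancreas, so neither group shows the untreated organ, and the labels do not name the Cre driver or the age or sex of the mice. Nor do they say that replicates were separate animals, so p-values measure only the spread between these samples. Levels are RPKM, read numbers scaled for gene length and for library size, and a log2 change is the CKO minus the WT mean of log2(RPKM + 1), which understates the change of genes near 1 RPKM.

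Ferritin is a hollow shell of heavy (Fth1) and light (Ftl1) chains in which a cell stores iron in a harmless form. Iron enters by endocytosis through the transferrin receptor Tfrc, crosses membranes through Slc11a2 and Slc39a14, and leaves the cell only through ferroportin, Slc40a1. The iron regulatory proteins, of which Ireb2 is one, bind a short RNA hairpin called the iron-responsive element when iron is scarce. Binding in the 5′ UTR holds back translation of the ferritin chains and of ferroportin, while binding in the 3′ UTR protects the Tfrc transcript from decay. Mt1 and Mt2 are small cysteine-rich proteins that bind zinc and copper, and their transcription is driven by the zinc sensor Mtf1, by glucocorticoids and by inflammation. The acinar cells that make up most of the pancreas are rich in zinc.

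The hairpin matches are shown because the side of the coding sequence on which an element lies sets how the iron regulatory proteins act on a transcript. They were found in the transcripts of GENCODE M21 (GRCm38, the same build as mm10) with the pattern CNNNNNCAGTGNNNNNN on the transcript strand, with 5 paired bases in the upper stem (G-T pairs allowed), no G at the end of the loop and at least 3 of 5 pairs in the lower stem. This pattern occurred in 68 of 21877 protein-coding genes (0.311%), and among the 10 genes it occurred in Fth1, Ftl1, Slc40a1 and Tfrc. Each element is 27 bases, printed 5′ to 3′ on the transcript strand, with the 6-base loop in capitals.
Fth1, 5′ UTR in exon 1, chr19:9982733-9982759 (+): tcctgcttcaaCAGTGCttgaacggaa
Ftl1, 5′ UTR in exon 1, chr7:45459780-45459806 (-): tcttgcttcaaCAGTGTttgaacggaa
Slc40a1, 5′ UTR in exon 1, chr1:45925466-45925492 (-): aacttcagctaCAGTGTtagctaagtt
Tfrc, 3′ UTR in exon 19, chr16:32631220-32631246 (+): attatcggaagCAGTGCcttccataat
Tfrc, 3′ UTR in exon 19, chr16:32631599-32631625 (+): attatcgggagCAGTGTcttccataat
Tfrc, 3′ UTR in exon 19, chr16:32631664-32631690 (+): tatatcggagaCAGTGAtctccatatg
Tfrc, 3′ UTR in exon 19, chr16:32631711-32631737 (+): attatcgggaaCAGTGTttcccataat
The Fth1 and Ftl1 elements share 25 of 27 bases and differ at C3T and C17T, counted from 1 at the 5′ end with the Fth1 base first. Tfrc holds 4 such elements, all in its last exon. A gene without a match only lacks these letters with this pairing in these transcripts, and may hold an element of another form.

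Library totals recovered from the values ran from 30469002 to 34359802 reads. Anxa1 lay between 4.76 and 7.13 RPKM in CKO and between 7.05 and 14.7 RPKM in WT (log2 change -0.73, limma adjusted p = 0.0417), with CKO4 just above WT3. That call held in 6 of 17 other settings, among them without CKO4 or WT3, and missed the threshold without any of the other libraries (adjusted p up to 0.108). The tissue label matched the levels of its markers. The 21 acinar markers, led by Ctrb1, summed to 384335 to 444637 RPKM in CKO and 390960 to 425215 RPKM in WT. The next highest marker list, that of duct cells, reached at most 8647 RPKM. Digestive enzymes took 58.4 to 67.3% of reads in CKO and 59.5 to 62.6% in WT. WT2 stood apart, with summed fat cell markers of 143 RPKM against 24.1 to 39.5 RPKM elsewhere and B and plasma cell markers of 14.1 RPKM against at most 4.82 RPKM. In whole tissue, fewer cells of a type and less RNA per cell cannot be told apart.

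Of the 10 genes, Ftl1 alone passed the threshold (limma, Benjamini-Hochberg adjusted p under 0.05 over the 8513 genes tested), and it was lower in CKO. The other 9 did not pass, and 0 of the 10 were called higher. Fth1 missed narrowly, while Mt1 and Mt2, which stood among the 46 most abundant genes of every library, did not pass and had overlapping groups. Across all tested genes, 7.17% passed in either direction, 5.74% as lower and 1.42% as higher in CKO, so that 19.8% of the calls were higher, a share that was 53.3% with median centring of each library. The median log2 change was -0.18 over the 10 genes and -0.12 over all tested genes. In all, 8 of the 10 genes had a change below 0, against 5991 of the 8513 tested genes. Every CKO library lay below every WT library for 3 of the 10 genes (Fth1, Ftl1 and Slc11a2), a pattern that 16.2% of all tested genes showed, and every CKO library lay above every WT library for 0 of the 10 against 2.46% of all tested genes.

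**Figure D1:**
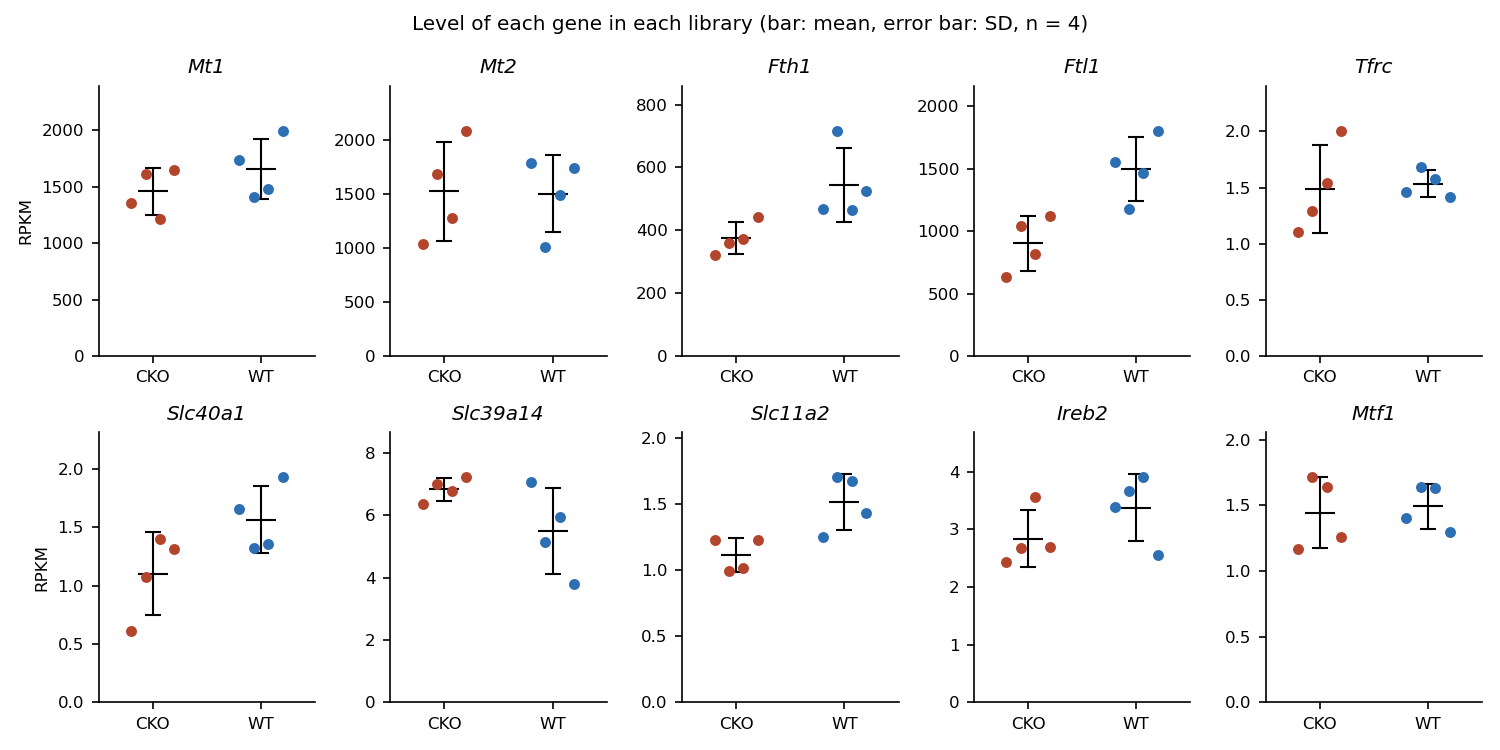
Level of each of the 10 genes in RPKM (vertical axis, from 0) in the 4 CKO and 4 WT libraries. Points are libraries in the order of their replicate number, the horizontal bar is the mean and the error bar the SD. Ftl1, Fth1 and Slc11a2 have no overlap between the groups, and the groups overlap for the metallothioneins.

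Transcripts of both ferritin chains were lower in every CKO library than in any WT library, and Ftl1 alone passed the test. Neither iron nor ferritin protein was measured. Ftl1, the light chain, which helps the iron core form inside the shell, lies on chromosome 7 from 45457944 to 45459884 on the minus strand. The 4 CKO libraries gave 634, 1041, 819 and 1118 RPKM, the 4 WT libraries 1554, 1179, 1463 and 1803 RPKM. The lowest WT library (WT2) still lay above the highest CKO library (CKO4). CKO averaged 903 ± 220 RPKM against 1500 ± 258 RPKM for WT (SD, n = 4 each), which is 1.66-fold higher in WT (log2 change -0.75, SE 0.18, limma adjusted p = 0.0309). Relative to the median of all tested genes the change was -0.63. The 21045 to 53282 reads behind each library's value put its counting error at no more than 0.689%, far below the spread between libraries.

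Fth1, the heavy chain, carries the ferroxidase activity that converts incoming iron for storage, and it lies on chromosome 19 from 9980598 to 9985098 on the plus strand. Levels in CKO were 322, 361, 371 and 444 RPKM, those in WT 469, 716, 466 and 527 RPKM. The groups did not overlap, and WT2 stood well above the other libraries. CKO averaged 374 ± 50.9 RPKM against 545 ± 118 RPKM for WT (log2 change -0.53, SE 0.15). With a limma adjusted p of 0.0506 Fth1 did not pass. It passed in 0 of the 17 other settings, with adjusted p from 0.0532 to 0.212, and without WT2 its log2 change was -0.39 (adjusted p = 0.119).

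Together the chains took 0.0919 to 0.150% of reads in CKO and 0.182 to 0.224% in WT. This separation follows from that of each chain and adds nothing to it. The chains did not keep a fixed proportion. Ftl1 was 1.97, 2.89, 2.21 and 2.52 times the RPKM of Fth1 in CKO1 to CKO4, and 3.31, 1.65, 3.14 and 3.42 times in WT1 to WT4. The mean ratio was 2.40 ± 0.397 in CKO and 2.88 ± 0.831 in WT (SD, n = 4 each), and the groups overlapped because of WT2, where Fth1 was highest and Ftl1 was the lowest of the WT values. Reads from processed ferritin copies can be shared with the parent genes. GENCODE lists 5 copies named as ferritin pseudogenes, of which only Ftl1-ps2 (picked with its values known) was in the table, at no more than 0.0625 RPKM, so the ferritin levels are uncertain to the extent that reads were split or pooled in counting.

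**Figure D2:**
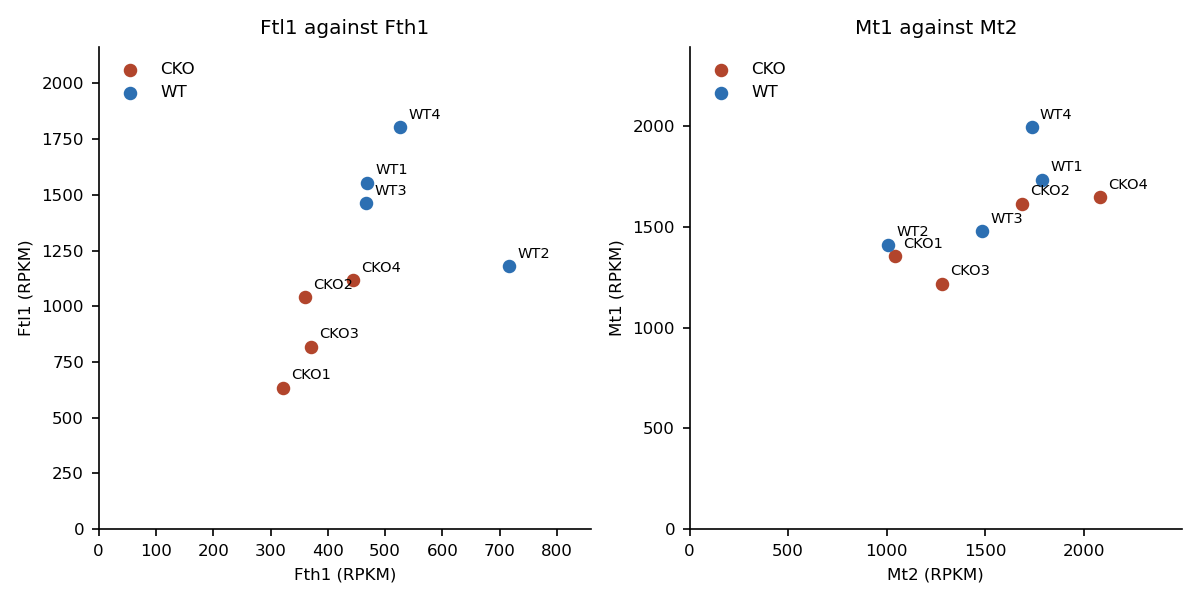
Left, Ftl1 against Fth1, and right, Mt1 against Mt2, both in RPKM with axes from 0 and 1 point per library. The CKO libraries lie below and to the left of the WT libraries for the ferritin chains, with WT2 set apart by its Fth1 of 716 RPKM, and the groups mix for the metallothioneins.

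The Ftl1 call held in 9 of the 17 other settings, and its log2 change ran from -0.86 to -0.52 over them. It missed the threshold without CKO3 (adjusted p = 0.0575), WT1 (0.0796), WT3 (0.0663) or WT4 (0.0756), with no filter on low values (0.0755), with median centring (log2 change -0.65, 0.0780), with totals that leave out acinar enzymes (-0.65, 0.0647), and with a trend on gene length removed (-0.52, 0.116). All these p-values are from limma with Benjamini-Hochberg adjustment. Short genes as a class also had lower values in CKO, as did the summed markers of macrophages, neutrophils and red cells, each with overlap between the groups. Of the 716 tested genes no longer than 1100 bases, a limit chosen after seeing the data that takes in both ferritins and both metallothioneins, 103 were called lower in CKO (14.4%) and 9 higher, against 386 lower of 7790 longer genes (4.96%). The median log2 change was -0.25 over the short and -0.11 over the longer genes. Every CKO library lay below every WT library for 198 of the 716 short genes and 1182 of the 7790 longer genes. The 16 monocyte and macrophage markers, led by Lyz2, summed to 193 to 390 RPKM in CKO and 352 to 712 RPKM in WT (495 RPKM at most without WT2). Of the 14 tested, 2 were called lower, 0 were called higher, and none of the 16 was at 0 in every library. Neutrophil markers, led by S100a9, summed to 14.4 to 47.0 RPKM in CKO and 37.6 to 84.1 RPKM in WT, with 0 of the 5 tested called in either direction. Red cell markers, led by Hbb-bs, summed to 39.0 to 88.9 RPKM in CKO and 60.6 to 93.3 RPKM in WT, with 2 of the 4 tested called lower and 0 higher. Here CKO3, at 88.9 RPKM, lay above WT1, WT3 and WT4. Endothelial markers summed to 18.7 to 24.6 RPKM in CKO and 21.3 to 32.7 RPKM in WT, with 1 of the 5 tested called lower and 0 higher. Among duct markers 1 of 9 was called lower, among islet markers 1 of 7 higher, and among acinar markers 2 of 21 lower and 1 higher. The part of any of these in the ferritin difference was not tested.

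**Figure D3:**
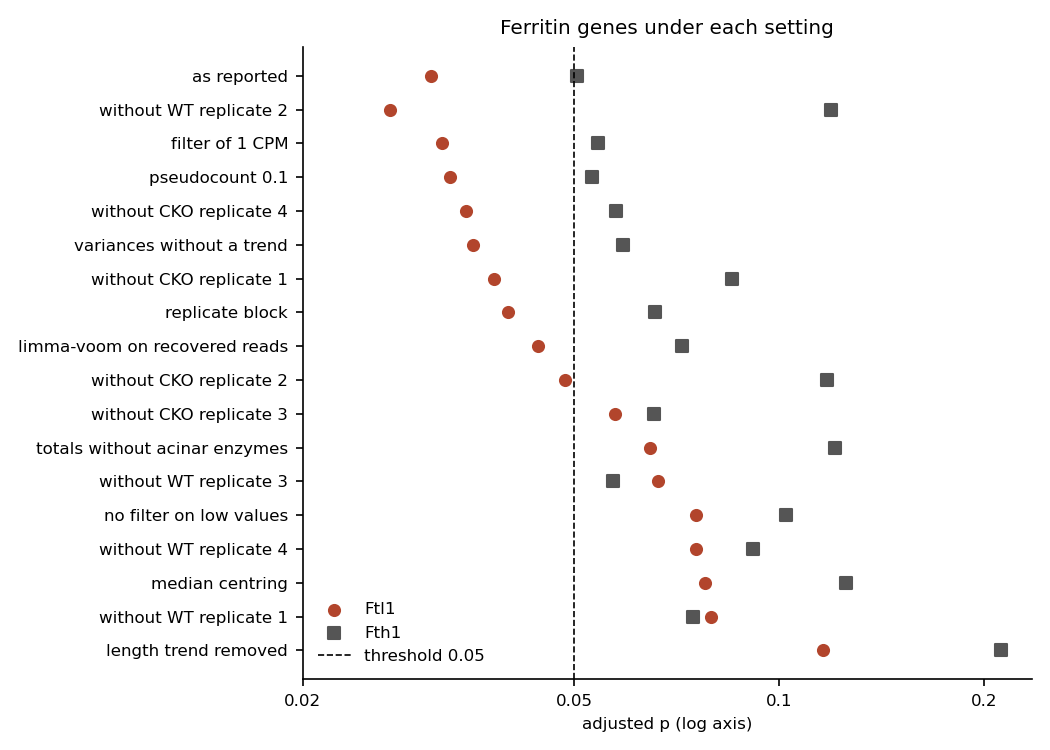
Adjusted p of Ftl1 (circles) and Fth1 (squares) on a log axis, as reported and under each of the 17 other settings (rows, ordered by the p of Ftl1), with the threshold of 0.05 dashed. Ftl1 lies under the threshold in 9 of the 17 settings and Fth1 in 0.

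Neither metallothionein was called. Mt1 (chromosome 8, 94179082 to 94180327, plus strand) gave 1355, 1616, 1219 and 1647 RPKM in the 4 CKO libraries, against 1736, 1412, 1478 and 1995 RPKM in the 4 WT libraries. CKO averaged 1459 ± 207 RPKM against 1655 ± 266 RPKM for WT (log2 change -0.18, SE 0.13, limma adjusted p = 0.409). Both CKO2 and CKO4 lay above WT2 and WT3, and the difference was within the spread of either group. Over the 17 other settings the log2 change ran from -0.25 to 0.043, and it was above 0 only with the length trend removed.

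Mt2 lies next to Mt1 on the same strand, from 94172664 to 94173568. CKO libraries held 1040, 1688, 1282 and 2083 RPKM and WT libraries 1787, 1006, 1487 and 1736 RPKM. The highest and the second highest values belonged to different groups, as did the lowest and the second lowest. CKO averaged 1523 ± 459 RPKM against 1504 ± 357 RPKM for WT (log2 change 0.00, SE 0.23, adjusted p = 0.993), and over the other settings the change ran from -0.18 to 0.27. An SE of 0.23 leaves room for a moderate change in either direction, so equal levels are not shown.

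The genes of this pair stood close to parity in RPKM but not in each library, and in reads Mt1 exceeded Mt2 in every library. RPKM divides by the recovered length, 1045 bases for Mt1 and 556 bases for Mt2. The ratio of Mt1 to Mt2 reads was 1.49 to 2.45 in CKO and 1.83 to 2.64 in WT. In RPKM the ratio of Mt1 to Mt2 was 1.30, 0.957, 0.951 and 0.791 in CKO1 to CKO4, and 0.971, 1.40, 0.994 and 1.15 in WT1 to WT4. Its mean was 1.00 ± 0.216 in CKO and 1.13 ± 0.199 in WT, with overlapping groups. Together the pair took 0.199 to 0.288% of reads in CKO and 0.203 to 0.305% in WT. Their rank among all genes by RPKM was 36 to 42 for Mt1 and 31 to 46 for Mt2, against 38 to 63 for Ftl1 and 62 to 106 for Fth1. The other family members, picked with their values known, were close to the limit of detection: Mt3 was at no more than 0.109 RPKM in CKO and 0.174 to 0.488 RPKM in WT, on at most 8 reads. Mt3 was left out of the test by the filter on low values, and without that filter it was called lower in CKO. Mt4 was at no more than 0.324 RPKM in any library.

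Mtf1, the zinc-sensing transcription factor that drives Mt1 and Mt2, lies on chromosome 4 from 124802104 to 124849800. The 4 CKO libraries gave 1.16, 1.71, 1.64 and 1.26 RPKM, the 4 WT libraries 1.40, 1.64, 1.63 and 1.29 RPKM. The groups overlapped fully, with a mean of 1.45 ± 0.273 RPKM in CKO and 1.49 ± 0.171 RPKM in WT (log2 change -0.03, SE 0.11, limma adjusted p = 0.889). The direction of so small a difference flipped with median centring (0.072) and with totals that leave out acinar enzymes (0.023).

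**Figure D4:**
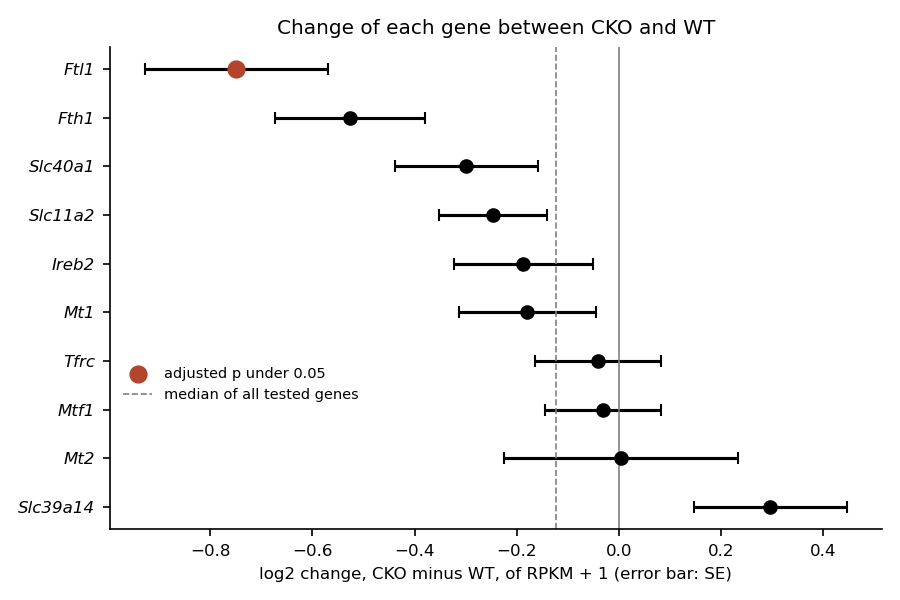
Log2 change, CKO minus WT, of each of the 10 genes (points) with its SE (error bars). The solid line is at 0 and the dashed line at the median of all tested genes, -0.12. Ftl1, at -0.75, is the only gene past the threshold, and Slc39a14, at 0.30, has the highest value.

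The 4 transporters were expressed at far lower levels than the ferritins, and none was called. Tfrc, the transferrin receptor, lies on chromosome 16 from 32608920 to 32632794. Levels in CKO were 1.10, 1.29, 1.54 and 2.00 RPKM, those in WT 1.46, 1.69, 1.57 and 1.42 RPKM. Both the lowest and the highest library were CKO, and the WT values sat between them. CKO averaged 1.48 ± 0.391 RPKM against 1.54 ± 0.121 RPKM for WT (log2 change -0.04, SE 0.12, adjusted p = 0.860). Its change turned positive with the length trend removed (0.023), with median centring (0.063) and with totals that leave out acinar enzymes (0.017).

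Slc11a2, the divalent metal transporter that moves ferrous iron across the membrane of the gut cell and out of the endosome, lies on chromosome 15 from 100387898 to 100425072 on the minus strand. CKO libraries held 1.23, 0.995, 1.02 and 1.23 RPKM and WT libraries 1.25, 1.70, 1.68 and 1.43 RPKM. The groups touched without overlapping, since WT1 lay just above CKO1. CKO averaged 1.12 ± 0.130 RPKM against 1.52 ± 0.213 RPKM for WT (log2 change -0.25, SE 0.11, limma adjusted p = 0.155). This was past the threshold in 0 of the 17 other settings, with changes from -0.44 to -0.14. The lowest library held 215 reads, a counting error of 6.82%.

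Slc39a14, known as ZIP14, carries zinc, manganese and iron that is not bound to transferrin, and inflammation raises it in liver. It lies on chromosome 14 from 70303469 to 70351425 on the minus strand. The 4 CKO libraries gave 6.35, 6.99, 6.79 and 7.21 RPKM, the 4 WT libraries 7.06, 5.16, 5.94 and 3.80 RPKM. The CKO values lay close together, and 3 of the 4 WT values lay below all of them, while WT1 lay among them. CKO averaged 6.83 ± 0.368 RPKM against 5.49 ± 1.37 RPKM for WT, 1.25-fold higher in CKO (log2 change 0.30, SE 0.15, limma adjusted p = 0.223). Its direction was kept in all 17 other settings (0.16 without WT4 to 0.41), and it passed the threshold in 0 of them.

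Slc40a1, ferroportin, is the only known exporter of iron and is abundant in macrophages that recycle red cells. It lies on chromosome 1 from 45908068 to 45926523 on the minus strand. Levels in CKO were 0.609, 1.08, 1.40 and 1.32 RPKM, those in WT 1.66, 1.33, 1.35 and 1.93 RPKM. CKO1 was lowest, and CKO3 lay above WT2 and WT3, so the groups overlapped. CKO averaged 1.10 ± 0.356 RPKM against 1.57 ± 0.284 RPKM for WT (log2 change -0.30, SE 0.14, adjusted p = 0.191). CKO1 rested on 67 reads, a counting error of 12.2%, and without it the log2 change was -0.18 (adjusted p = 0.377). Over the 17 other settings the change ran from -0.56 with limma-voom to -0.18, and it passed in 0 of them.

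Ireb2, or IRP2, is the iron regulatory protein that is degraded when iron is plentiful, so its transcript level does not report its activity. It lies on chromosome 9 from 54863789 to 54912530. CKO libraries held 2.43, 2.68, 3.56 and 2.69 RPKM and WT libraries 3.39, 3.67, 3.90 and 2.56 RPKM. CKO3 lay among the high WT values and WT4 among the low CKO values. CKO averaged 2.84 ± 0.495 RPKM against 3.38 ± 0.587 RPKM for WT (log2 change -0.19, SE 0.14, limma adjusted p = 0.395), and the change ran from -0.28 without WT4 to -0.083 with median centring. Its partner Aco1, or IRP1, picked with its values known, was at 5.43 ± 0.502 RPKM in CKO and 5.72 ± 0.871 RPKM in WT (log2 change -0.06, adjusted p = 0.799).

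Genes with the same pattern over the 8 libraries were sought for Mt1, Slc39a14 and Fth1, by Pearson's r on log2(RPKM + 1), given as a description since the libraries differ by group and in makeup. For Fth1 the highest were Anxa1 (r = 0.98), Mrpl57 (0.98) and Stard7 (0.98), and r stayed between 0.95 and 0.97 over the 6 libraries left once the 2 farthest from each gene's median were dropped. Anxa1 is the deleted gene, so this likeness includes the difference between the groups, and WT2 was the highest library for both genes. For Slc39a14 they were Tox (0.97), Swt1 (0.95) and Ufsp2 (0.91), for which r without the 2 farthest libraries was 0.87, 0.69 and 0.93. For Mt1 they were Reep5 (0.92), Sycn (0.91) and Ccdc58 (0.91), for which it was 0.83, 0.95 and 0.66. Sycn codes for syncollin, a protein of acinar zymogen granules, at 6665 ± 1187 RPKM in CKO and 7009 ± 1058 RPKM in WT.

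Other metal genes were counted by list, from the same fit. Of 108 genes in 3 lists, 104 were in the table and 76 were tested, and 1 was called higher and 4 lower in CKO. That balance did not hold under other scalings: 3 were higher and 0 lower with the length trend removed, 2 higher and 1 lower with median centring, and 2 higher and 2 lower with totals that leave out acinar enzymes. Besides Nfe2l2, the higher genes there were Cpox, an enzyme of haem synthesis, in all 3 of these settings, and the iron chaperone Pcbp1 with the length trend removed, both picked with their values known. As reported, Cpox had a log2 change of 0.47 (limma adjusted p = 0.0533) and Pcbp1 one of 0.09 (0.577). In the list of other iron genes, 1 of 45 tested was higher, 3 were lower and 41 did not pass, with a median log2 change of -0.18. In the list of zinc transporters and zinc-binding genes, 0 of 17 passed in either direction, with a median of -0.18. In the list of copper and manganese genes, 1 of 14 was lower and 0 were higher, with a median of -0.29. A share of 5.26% of the 76 was called lower, against the 5.74% of all tested genes given above. Without CKO2, WT2 or WT4, 1 of the 76 passed, and without CKO4 or WT1, 2 passed. Without WT3, 3 passed.

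The gene called higher was Nfe2l2, which codes for NRF2, the oxidative stress factor that drives transcription of both ferritin chains among many other genes. It was at 23.3 to 38.5 RPKM in CKO and 10.3 to 15.4 RPKM in WT, with no overlap (32.3 ± 7.11 against 12.6 ± 2.11 RPKM, log2 change 1.27, SE 0.17, limma adjusted p = 0.0011), and it passed in all 17 other settings. Its direction was opposite to that of Ftl1. NRF2 protein and its activity were not measured, and a link to the ferritins was not tested. The 3 iron genes called lower serve mitochondria. Slc25a28, mitoferrin 2, an iron importer of the mitochondrion, was at 16.4 ± 2.85 RPKM in CKO and 23.5 ± 0.637 RPKM in WT (log2 change -0.51, adjusted p = 0.0350). Nfs1, the sulfur donor for iron-sulfur clusters, was at 4.91 ± 0.901 against 7.20 ± 0.444 RPKM (-0.48, 0.0427). Glrx5, a glutaredoxin that passes the clusters on, was at 6.77 ± 0.914 against 9.64 ± 0.618 RPKM (-0.46, 0.0380). The groups did not overlap for any of these 3 genes, yet their calls held in only 6, 7 and 5 of the 17 other settings. The call of Slc25a28 was lost without CKO2, CKO4 or any WT library (adjusted p up to 0.0858), that of Nfs1 without any library but CKO3 (up to 0.113), and that of Glrx5 without any library but CKO1 (up to 0.108). With the length trend removed the change was -0.34 for Slc25a28 (0.0931) and -0.23 for Glrx5 (0.192). The calls of Slc25a28 and Glrx5 were also lost with median centring (limma adjusted p = 0.0813 and 0.126). Totals that leave out acinar enzymes lost both as well (0.0714 and 0.111), while Nfs1 kept its call under both scalings (0.0319 and 0.0279). All 3 calls were lost with limma-voom, with no filter on low values and with the length trend removed.

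The copper gene called lower was Cox17, the chaperone that brings copper to cytochrome c oxidase, at 4.66 ± 0.205 RPKM in CKO and 7.85 ± 1.60 RPKM in WT (log2 change -0.63, SE 0.14, limma adjusted p = 0.0221). Its call held in 11 of the 17 other settings and was lost without CKO2, CKO4, WT2 or WT4 (adjusted p up to 0.0586). The others of that list with the smallest p did not pass. They were Tmem165, a manganese transporter of the Golgi (log2 change -0.48, adjusted p = 0.0622), Sco1, another copper chaperone of the mitochondrion (-0.29, 0.0924), and the copper-zinc superoxide dismutase Sod1 (-0.29, 0.0926), where CKO averaged 69.1 ± 5.66 RPKM and WT 84.5 ± 4.75 RPKM. Sod1, at 637 bases, is one of the short genes, and with the length trend removed its change was -0.035 (adjusted p = 0.783), while that of Cox17 was -0.39 (0.0551) and that of Tmem165 -0.31 (0.132). Sco1 ran from -0.54 with limma-voom to -0.18 with median centring.

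None of the zinc list passed. Of its zinc transporters, the 3 with the smallest p were Slc30a2, Slc30a6 and Slc30a1. The list also held Selenow, a selenium-containing redox protein that is not known to carry zinc, at 43.6 ± 1.02 RPKM in CKO and 57.6 ± 7.20 RPKM in WT with no overlap (log2 change -0.39, adjusted p = 0.0506). Removing the length trend left it at -0.14. Slc30a2, a zinc exporter of secretory granules, was at 2.13 ± 0.632 against 3.48 ± 0.570 RPKM (-0.53, 0.0574). Slc30a6 of the Golgi was at 2.20 ± 0.341 against 2.98 ± 0.420 RPKM (-0.32, 0.121). Slc30a1, the zinc exporter of the plasma membrane and, like the metallothioneins, a target of Mtf1, was at 2.82 ± 1.15 against 4.13 ± 0.839 RPKM (-0.46, 0.175), and without CKO1 its change was -0.27. None of these 4 passed, and Slc30a2 and Slc30a1 overlapped between the groups.

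**Figure D5:**
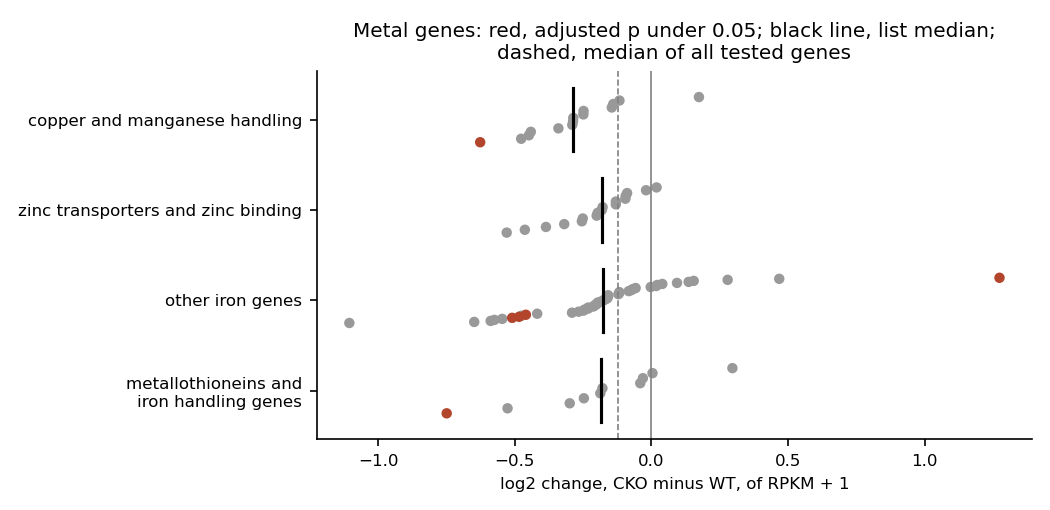
Log2 change, CKO minus WT, of each tested gene in the 10 genes and in the 3 lists of other metal genes (rows), with genes past the threshold in red. Black bars are list medians and the dashed line is the median of all tested genes. Nfe2l2, at 1.27, is the only gene called higher, and the grey point farthest to the left is haptoglobin, Hp (-1.11, adjusted p = 0.391).

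A few further iron genes were picked with their values known. Hmox1, the haem oxygenase that frees iron from haem and a target of NRF2, was at 45.5 ± 12.7 RPKM in CKO and 50.4 ± 10.7 RPKM in WT (log2 change -0.17, limma adjusted p = 0.646). Slc11a1, a metal transporter of the macrophage phagosome, was at 2.33 ± 0.533 against 3.89 ± 1.06 RPKM, without overlap but short of the threshold (-0.55, 0.0604). Ncoa4, the receptor that hands ferritin to the lysosome, was at 3.69 ± 0.401 against 3.63 ± 1.02 RPKM (0.04, 0.896). Hamp2, the second mouse hepcidin gene and one whose product is not known to regulate iron, was at 17.1 ± 3.14 against 26.9 ± 8.62 RPKM (-0.59, 0.0882), and its groups overlapped.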

How the data were processed

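RNA from 8 pancreas samples was sequenced by the submitters on an Illumina instrument. The deposited table gives 1 RPKM value per gene and library, made by the authors. Its header names no unit. RPKM was read from the values: of 16068 genes above 0 in at least 2 libraries, 16056 (99.93%) came out as whole reads within 0.05 for 1 gene length and 1 total per library. The build is mm10, per the submitters' processing notes. No source used here names the aligner, counter, annotation or use of strand. A further 1 unnamed column of 8 values was not used.

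The 8513 genes that reached 1 RPKM in 4 or more libraries entered a limma 3.58.1 fit (R 4.3.3) of log2(RPKM + 1) on group alone, with trended, robust variances and Benjamini-Hochberg adjustment over all tested genes at 0.05. Python 3.11.15, NumPy 2.4.6, pandas 2.3.3 and Matplotlib 3.10.9 served elsewhere. The recovery of reads and the fit as reported were tested on simulated data, and the 17 other settings were not. The 17 other settings left out each library in turn, used a pseudocount of 0.1, a filter of 1 CPM or none, untrended variances, limma-voom on the reads recovered, a replicate block, median centring, or totals without acinar enzymes. The last of them, removal of a trend on gene length, was added after seeing the data.

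The 10 genes and the lists were chosen with earlier results of these data known. Genes to name were the 10, Anxa1, the genes of each metal list past the threshold with up to 4 of smallest p, and the 3 genes most like each of Mt1, Slc39a14 and Fth1. Others are said to be chosen after their values were seen. Counting errors cover reads only, which are not independent molecules. Positions are from GENCODE M21. A chi-square test found replicate libraries to differ beyond sampling noise in every pair.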

Additional observations from a re-analysis of the deposited data

How the results depend on the processing

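Of the 10 genes, 0 passed the threshold with the length trend removed, median centring, no filter on low values, or totals without acinar enzymes, and leaving out single libraries gave 0 to 1. Without the filter 16888 genes entered both the fit and the adjustment, and the SE of Ftl1 was 0.194 against 0.179 as reported. The cause was not tested for any of these settings. Of the other metal genes, 5 passed as reported (1 higher, 4 lower), 3 with the length trend removed (3 higher), 3 with median centring (2 higher), 2 with limma-voom and 1 to 7 when 1 library was left out. Nfe2l2 was among them each time. Over all genes, 610 passed (19.8% of them higher in CKO), and 223 to 705 when 1 library was left out, fewest without WT1. The share of calls that were higher was 53.3% with median centring, 41.5% with totals without acinar enzymes and 59.4% with the length trend removed, and the median log2 change of all genes moved from -0.12 to -0.02, -0.05 and -0.01. Among the 10 genes and with all 8 libraries kept, directions flipped only for genes near 0 that passed nowhere: Mt1 (0.043 with the length trend removed), Tfrc (0.023 with the length trend removed, 0.063 with median centring, 0.017 with totals without acinar enzymes) and Mtf1 (0.072 with median centring, 0.023 with totals without acinar enzymes). Without single libraries, directions also flipped for Mt2, Tfrc and Mtf1. There the log2 change ran from -0.18 to 0.17 for Mt2, from -0.14 to 0.035 for Tfrc and from -0.083 to 0.025 for Mtf1.

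Same-numbered libraries correlated at -0.12, -0.32, 0.14 and 0.03 in their deviations from the group means. The best match with another number gave 0.22, 0.21, 0.10 and 0.085. These values cannot exclude that the samples were paired by replicate number. With the replicate block 548 genes passed in place of 610, Ftl1 remained called (adjusted p = 0.0399) and Fth1 did not (0.0657). Depth adds to the uncertainty of Tfrc, Slc40a1, Slc11a2 and Mtf1, where the lowest libraries held 67 to 301 reads. Counting errors there were 5.76 to 12.2%. For each gene the error was below the SD of both groups, which was 7.90 to 32.4% of the group mean.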
